A study of Mus musculus with 4 samples.

Results

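The 38 genes described here are markers of mitosis and proliferation, chosen by name from a fixed list, and all 38 were found among the 16336 unique gene names of the files. Their transcripts were counted in 4 RNA sequencing libraries of mouse T cells, 1 for each group. A group was defined by its T cell receptor, TRP1high or TRP1low, and by the peptide, K8 or M9, carried by the B cells that stimulated it for 48 h. Fluorescence-activated sorting then separated the T cells from the B cells. The series title places them among CD8 T cells responding to tumour antigen peptides with altered binding to MHC class I. All 4 groups thus shared the sorting, the B cell stimulation and the time point, and there was no unstimulated group. No source used here gives the strain or age of the mice, or how many animals or cultures went into a library. With 1 library per group the spread between cultures is unknown, so no difference below has a p-value.

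A T cell that recognises its antigen enters the cell cycle and divides repeatedly. In late S, G2 and M phase a common programme of genes is switched on, driven by the MuvB, B-MYB and FOXM1 proteins through CHR promoter elements and by NF-Y through CCAAT boxes. It supplies the cyclins and kinases that start mitosis, the kinetochores and motors that move chromosomes, the checkpoint that delays anaphase, and the proteins that split the cell. Mki67 encodes Ki-67, which coats mitotic chromosomes and is the usual stain for dividing T cells. In bulk RNA, fewer dividing cells and less transcript per dividing cell cannot be told apart.

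Promoter sequences are shown for Mki67, for the 3 members whose pattern over the libraries was closest to it (Cenpe, Cenpf and Kif4) and for the farthest one (Ect2), so that both sides of the comparison below can be read. Each runs 5′ to 3′ over 300 bases, 250 before to 50 after the start given by RefSeq (GRCm38.p6). Gene positions printed below come from GENCODE M21, whose starts can differ. The whole Kif4 window lies inside the gene as GENCODE places it, with its start at 100625737. Capitals mark matches on either strand to TTTGAA or TTCGAA, the core letters of the CHR, and to CCAAT. Mki67 lies at chr7:135716330-135716629 on the minus strand, Cenpe at chr3:135212313-135212612 (plus), Cenpf at chr1:189688037-189688336 (minus), Kif4 at chrX:100625815-100626114 (plus) and Ect2 at chr3:27153829-27154128 (minus, the first listed of 2 overlapping entries).
Mki67: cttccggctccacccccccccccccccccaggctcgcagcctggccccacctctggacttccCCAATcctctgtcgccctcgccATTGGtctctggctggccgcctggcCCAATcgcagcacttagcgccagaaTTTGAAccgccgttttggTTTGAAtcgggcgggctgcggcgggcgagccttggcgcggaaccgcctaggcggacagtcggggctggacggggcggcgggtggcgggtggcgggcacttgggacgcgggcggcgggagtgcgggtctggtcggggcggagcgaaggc
Cenpe: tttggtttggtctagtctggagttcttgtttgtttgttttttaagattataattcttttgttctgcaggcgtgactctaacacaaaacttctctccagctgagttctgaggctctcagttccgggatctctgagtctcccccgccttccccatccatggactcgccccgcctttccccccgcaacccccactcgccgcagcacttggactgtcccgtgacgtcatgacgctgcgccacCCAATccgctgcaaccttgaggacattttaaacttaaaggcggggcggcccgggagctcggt
Cenpf: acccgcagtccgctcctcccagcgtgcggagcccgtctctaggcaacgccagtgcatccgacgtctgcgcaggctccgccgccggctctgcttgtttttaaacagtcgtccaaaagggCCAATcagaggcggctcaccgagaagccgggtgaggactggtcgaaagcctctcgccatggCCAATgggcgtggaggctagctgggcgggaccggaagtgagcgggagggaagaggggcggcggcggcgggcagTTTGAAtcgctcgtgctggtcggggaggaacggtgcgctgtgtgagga
Kif4: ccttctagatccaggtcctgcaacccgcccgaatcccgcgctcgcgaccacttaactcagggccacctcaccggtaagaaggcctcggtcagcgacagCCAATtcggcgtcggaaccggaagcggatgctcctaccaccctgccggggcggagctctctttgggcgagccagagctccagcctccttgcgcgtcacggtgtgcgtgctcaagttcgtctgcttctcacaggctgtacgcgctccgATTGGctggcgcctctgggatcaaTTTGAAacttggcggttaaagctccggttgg
Ect2: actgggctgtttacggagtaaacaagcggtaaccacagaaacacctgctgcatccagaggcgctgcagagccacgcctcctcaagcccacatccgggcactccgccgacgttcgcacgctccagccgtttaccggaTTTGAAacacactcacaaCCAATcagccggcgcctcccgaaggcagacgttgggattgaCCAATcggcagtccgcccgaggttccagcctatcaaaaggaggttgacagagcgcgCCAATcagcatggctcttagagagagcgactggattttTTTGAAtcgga

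The promoter table held 31 of the 38 members, without Aurkb, Ccna2, Dlgap5, Incenp, Kif20a, Stmn1 and Tpx2. A CHR match stood in 25 of the 31 (80.6%), against 19.2% of the 32851 promoters in the table. CCAAT was found in 24 of 31 (77.4%), against 37.4%. Matches were counted also where they overlapped. The Mki67 promoter held 2 CHR matches and 3 CCAAT matches, and that of Ect2 also held 2 and 3. Cenpe had 1 CCAAT and no CHR match in this window, while Cenpf and Kif4 each had 1 CHR and 2 CCAAT matches. Mki67 and its unlike partner Ect2 therefore did not differ in the number of these matches.

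The libraries held 29.6 M estimated reads in TRP1low with K8 and 40.3 M to 41.5 M in the other 3. Levels are given as deposited, as log2 of a normalized count plus 1. The 4 levels of a gene always stand in 1 order, TRP1high before TRP1low and, within each receptor, K8 before M9. The 38 genes together took 0.435% of the reads in TRP1high with K8 (95% Wilson interval 0.433 to 0.437), 0.411% in TRP1high with M9 (0.409 to 0.413), 0.357% in TRP1low with K8 (0.355 to 0.36) and 0.371% in TRP1low with M9 (0.369 to 0.372). These shares are sums, in which abundant members weigh most, such as Top2a at 21165, 22977, 7980 and 14016 normalized counts. Between the receptors with K8, the 31 members that were not 2-fold higher in TRP1high had a median log2 difference of 0.01. Intervals here cover counting error only and not the spread between cultures, because each group has 1 library. The reads carry no molecular identifiers, so copies of 1 molecule count as separate reads and the intervals may be too narrow. Markers of CD8 T cells were high in all 4 libraries, with Cd8a, the CD8 alpha chain, at 14.33, 14.80, 15.14 and 14.82 and Cd3e, a chain of the T cell receptor complex, at 12.72, 13.35, 11.92 and 12.34, while Cd4 had at most 19 estimated reads. The 10 CD8 markers summed to between 119024 and 152680 normalized counts and the 4 CD4 markers to between 45.7 and 137. B cell markers (15 genes, all in the files) summed to 4162 and 3067 normalized counts with K8 in TRP1high and TRP1low and to 1493 and 1060 with M9. Among them, Cd79a was at 7.19, 1.99, 6.60 and 4.87 and Ms4a1 at 7.30, 3.68, 6.14 and 4.72. Pax5 was at 9.07, 0.00, 3.41 and 4.21, above the median of all genes (8.62) in TRP1high with K8, and Igkc at 8.81, 3.31, 9.05 and 6.24. Cd74 was at 10.40, 9.34, 10.29 and 8.55, so B cell transcripts were present in these T cell libraries, in sum more with K8 than with M9. Gene by gene, 14 of the 15 were lower with M9 in TRP1high and 1 was higher. In TRP1low 11 were lower with M9 and 4, Pax5 among them, were higher. Cr2 was at 0 in both M9 libraries. Erythroid markers (6 of 7 in the files) summed to 616 normalized counts in TRP1low with K8 and to between 11.0 and 18.4 in the others. Germinal centre and plasma cell markers (7 genes) summed to 2995 in that library and to between 6056 and 7119 in the others. Myeloid markers (5 of 11 in the files, Lyz2 among them at 3.58, 1.57, 5.53 and 1.63) summed to 111 and to between 9.32 and 19.8. TRP1low with K8 also had 1205 genes at 0, against 633 to 769 in the others. The erythroid and myeloid lists were highest, and the plasma cell list lowest, in the library where Mki67 was lowest, and their part in that result was not tested.

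Mki67 was among the members that differed most between the libraries. Over the 38 genes, 27 (71.1%) kept within 1 log2 unit between their highest and lowest library, and 29 (76.3%) were 2-fold apart in none of the 4 comparisons of receptor and peptide. Both shares were near those of the 10045 genes that averaged 100 or more normalized counts, 74.4% and 79.3%, and above those of all 16100 genes tested, 52.7% and 69.1%. The members as a whole were thus about as level as other well measured genes. A gene counted as 2-fold apart when its log2 values differed by at least 1 and 1 library of the pair had at least 10 normalized counts. Mki67, which lies on chromosome 7 (135689784 to 135716361, mm10), stood at 12.54 (K8) and 12.47 (M9) in TRP1high, but at 8.77 (K8) and 10.30 (M9) in TRP1low. Both TRP1high libraries were high and near each other, and both TRP1low libraries were lower, with K8 the lowest. The estimated reads behind these levels were 5978, 5747, 318 and 1204.

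**Figure D1:**
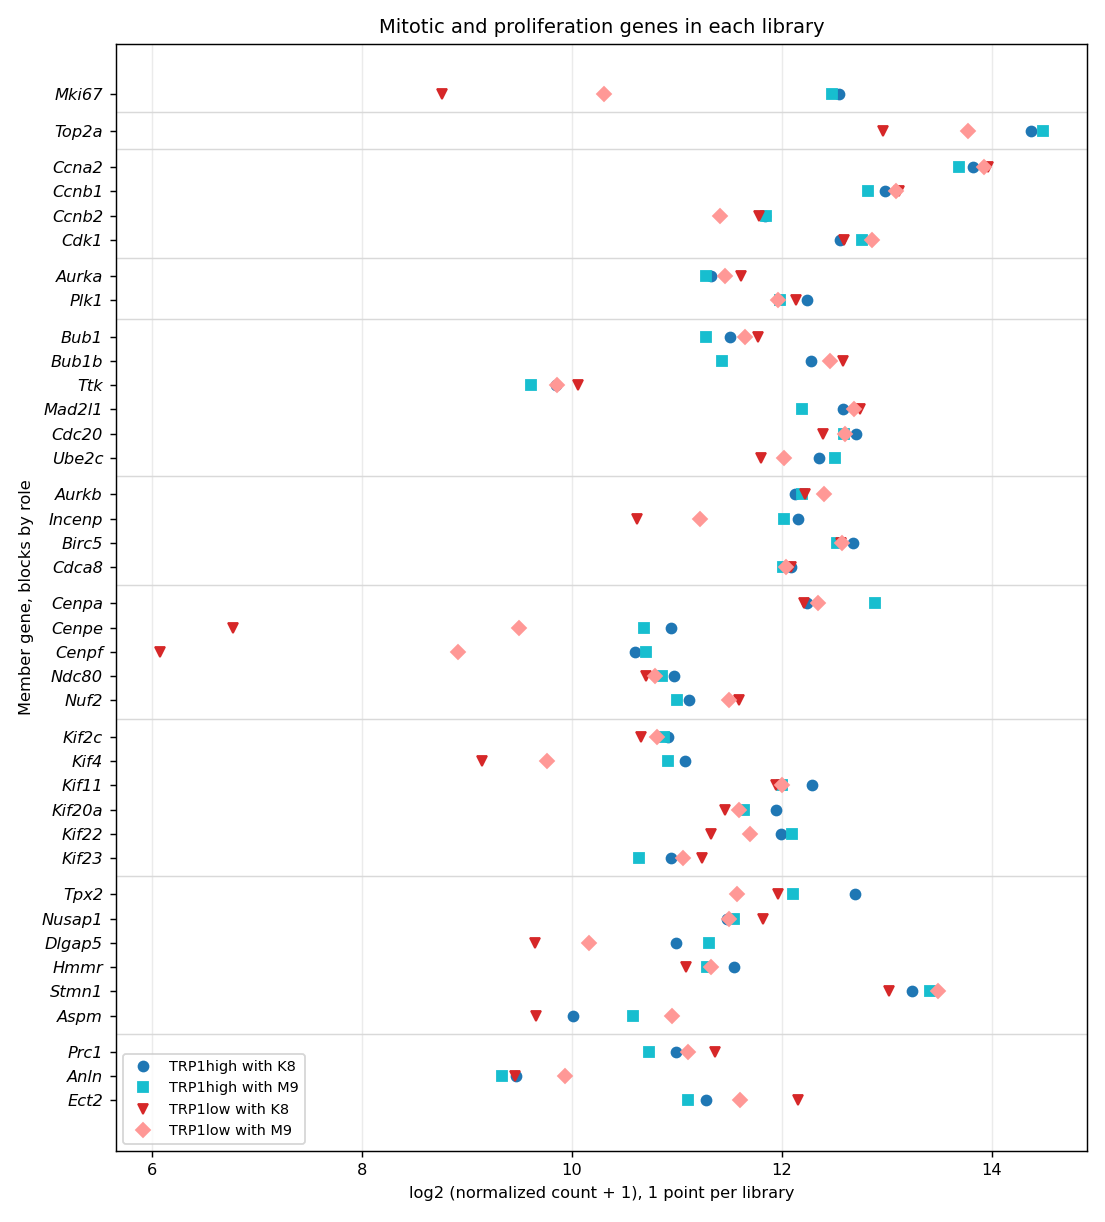
Level of each of the 38 genes (rows, in blocks by role) on the deposited log2 scale (horizontal axis), with 1 point per library. Mki67, Cenpe, Cenpf, Kif4, Incenp, Top2a and Dlgap5 have both TRP1low points left of both TRP1high points, with TRP1low with K8 leftmost, while in most other rows the 4 points lie within 1 log2 unit. Some of those other rows, such as Kif22 and Ube2c, have the same order over a shorter range.

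The receptor comparison with K8 asks how the proliferation programme differed between the receptors under that peptide. Of 38 members, 7 were at least 2-fold higher in TRP1high and 0 were lower, where 10.6% of the 16100 genes tested were higher and 8.35% lower (18.9% in all). The 7 were Mki67, Cenpe, Cenpf, Kif4, Incenp, Top2a and Dlgap5. The median log2 difference of the 38 was 0.12, against -0.002 over all genes tested, and 24 members were above 0 and 14 below. The 7, chosen by this comparison, ran from 1.34 to 4.52. The other 31 members had a median of 0.01 and ran from -0.88 to 0.73. The member nearest to 2-fold from below was Tpx2 (0.73), and the nearest from above Dlgap5 (1.34).

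Mki67 was 13.7-fold higher in TRP1high than in TRP1low with K8 (95% exact counting interval of the ratio 12.3 to 15.4). Cenpe and Cenpf, large proteins of the outer kinetochore, went farther. Cenpe, the kinesin that captures microtubules at kinetochores (chromosome 3, 135212537 to 135273611), stood at 10.94, 10.69, 6.78 and 9.50 in the order given above. It was lowest in TRP1low with K8 and next lowest in TRP1low with M9, and it was 18.1-fold (14.4 to 22.7) apart between the receptors with K8. Cenpf (chromosome 1, 189640606 to 189688086) stood at 10.60, 10.70, 6.08 and 8.92, a 23.3-fold (17.4 to 31.4) difference with K8 that rests on 49 reads in TRP1low with K8. Its TRP1low with M9 level lay between that library and the TRP1high pair.

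Kif4, a chromokinesin that shapes chromosomes and the midzone (chromosome X, 100625737 to 100727214), stood at 11.08, 10.91, 9.15 and 9.76 and was 3.82-fold (3.43 to 4.25) higher in TRP1high with K8. Incenp, the scaffold of the chromosomal passenger complex (chromosome 19, 9872296 to 9899551), stood at 12.15, 12.02, 10.62 and 11.22, a 2.90-fold (2.71 to 3.09) difference. Both had the 2 TRP1low libraries below the 2 TRP1high libraries. Top2a, the topoisomerase that untangles sister chromatids (chromosome 11, 98992943 to 99024189), stood at 14.37, 14.49, 12.96 and 13.77 and was 2.65-fold (2.58 to 2.73) higher. Dlgap5, a spindle protein also called HURP (chromosome 14, 47387779 to 47418407), stood at 10.99, 11.31, 9.65 and 10.16, a 2.53-fold (2.31 to 2.78) difference. All 7 genes had their lowest level in TRP1low with K8 and their second lowest in TRP1low with M9.

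The mitotic cyclins and their kinase did not share this. Ccna2, the cyclin of S phase and mitotic entry, stood at 13.82, 13.69, 13.96 and 13.92. Ccnb1, the main mitotic cyclin, stood at 12.98, 12.82, 13.11 and 13.08. Cdk1, the kinase that both cyclins activate, stood at 12.56, 12.76, 12.59 and 12.86. The highest and lowest libraries of these 3 genes were 0.27, 0.29 and 0.30 log2 units apart. Ccnb2, the second B-type cyclin, stood at 11.84, 11.85, 11.78 and 11.41, lowest in TRP1low with M9. The mitotic kinases Plk1 (12.24, 11.98, 12.13 and 11.96) and Aurka (11.33, 11.27, 11.61 and 11.46) were as near level.

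Spindle checkpoint genes mostly stood slightly lower in TRP1high than in TRP1low. The median of the 6 checkpoint and anaphase-promoting complex genes was -0.18 with K8 and -0.31 with M9. Bub1b, which encodes the checkpoint kinase BUBR1, stood at 12.28, 11.43, 12.59 and 12.45, so that TRP1high with M9 was the 1 low library. Mad2l1, the checkpoint protein that holds back CDC20, stood at 12.58, 12.19, 12.75 and 12.68 with the same library lowest. Ttk, the kinase MPS1 that recruits the checkpoint, ran from 9.61 to 10.06, and Bub1 from 11.28 to 11.77. Cdc20, the activator of the anaphase-promoting complex, ran from 12.39 to 12.70 and its ubiquitin-conjugating partner Ube2c from 11.80 to 12.51, both lowest in TRP1low with K8.

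Within single protein complexes the members parted. In the chromosomal passenger complex, the kinase gene Aurkb stood at 12.13, 12.19, 12.22 and 12.40, Birc5 (survivin) ran from 12.53 to 12.68 and Cdca8 (borealin) from 12.01 to 12.09, while Incenp covered 10.62 to 12.15. In the kinetochore, Ndc80 and Nuf2 encode partners in 1 microtubule-binding complex. Ndc80 stood at 10.97, 10.86, 10.70 and 10.79, and Nuf2 at 11.12, 11.00, 11.59 and 11.49, higher in TRP1low, in contrast to Cenpe and Cenpf. Cenpa, the centromeric histone H3 variant, stood at 12.24, 12.88, 12.21 and 12.34 and was highest in TRP1high with M9.

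Among the 6 kinesin motors, Kif4 was the 1 that passed 2-fold, and the other 5 stayed within 0.77 log2 units over the libraries. Kif11, the motor that pushes the spindle poles apart, ran from 11.94 to 12.29, Kif2c, a microtubule depolymerase, from 10.66 to 10.91 and Kif20a, a cytokinesis motor, from 11.46 to 11.94. Kif22, a chromokinesin, ran from 11.33 in TRP1low with K8 to 12.09. Kif23, a motor of the central spindle, ran from 10.64 to 11.23 and was highest in TRP1low with K8. Of the spindle regulators, Tpx2, which activates Aurora A, stood at 12.70, 12.11, 11.97 and 11.57, higher with K8 than with M9 under both receptors. Hmmr ran from 11.09 to 11.55, Nusap1 from 11.47 to 11.82 and Stmn1, a tubulin-binding protein, from 13.02 to 13.48.

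The 3 cytokinesis genes stood lower in TRP1high than in TRP1low with both peptides, except Anln with K8, which was level (0.01). Ect2, the exchange factor that activates RHOA at the cleavage furrow, stood at 11.27, 11.11, 12.15 and 11.60 and was 1.84-fold (1.75 to 1.94) higher in TRP1low with K8 than in TRP1high with K8. It was the member most unlike Mki67. Prc1, which bundles midzone microtubules, stood at 10.99, 10.73, 11.37 and 11.10, also highest in TRP1low with K8. Anln, the furrow scaffold anillin, stood at 9.47, 9.34, 9.46 and 9.94 and was highest in TRP1low with M9.

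With M9, the same comparison of receptors gave smaller differences. TRP1high was at least 2-fold higher for 5 of 38 members, against 7.37% of all genes tested, and lower for 1, against 5.58% (13.0% in all). The 5 were Mki67, Cenpe, Cenpf, Kif4 and Dlgap5, all of which were among the 7 with K8. Mki67 had the largest difference of all members at 4.50-fold (4.23 to 4.80), followed by Cenpf at 3.45-fold (3.11 to 3.83) and Cenpe at 2.28-fold (2.09 to 2.50). Kif4 and Dlgap5 were each 2.22-fold higher. Incenp and Top2a were 1.74-fold and 1.64-fold higher. Bub1b was the lower one, at 2.04-fold (1.95 to 2.14), a call that ended when the libraries were rescaled to equal sums (-0.99 log2) or by the median ratio (-0.97), which left 0 members lower. The median of the 38 was -0.02, against -0.03 over all genes tested, and it turned positive under both rescalings (0.02 and 0.05).

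**Figure D2:**
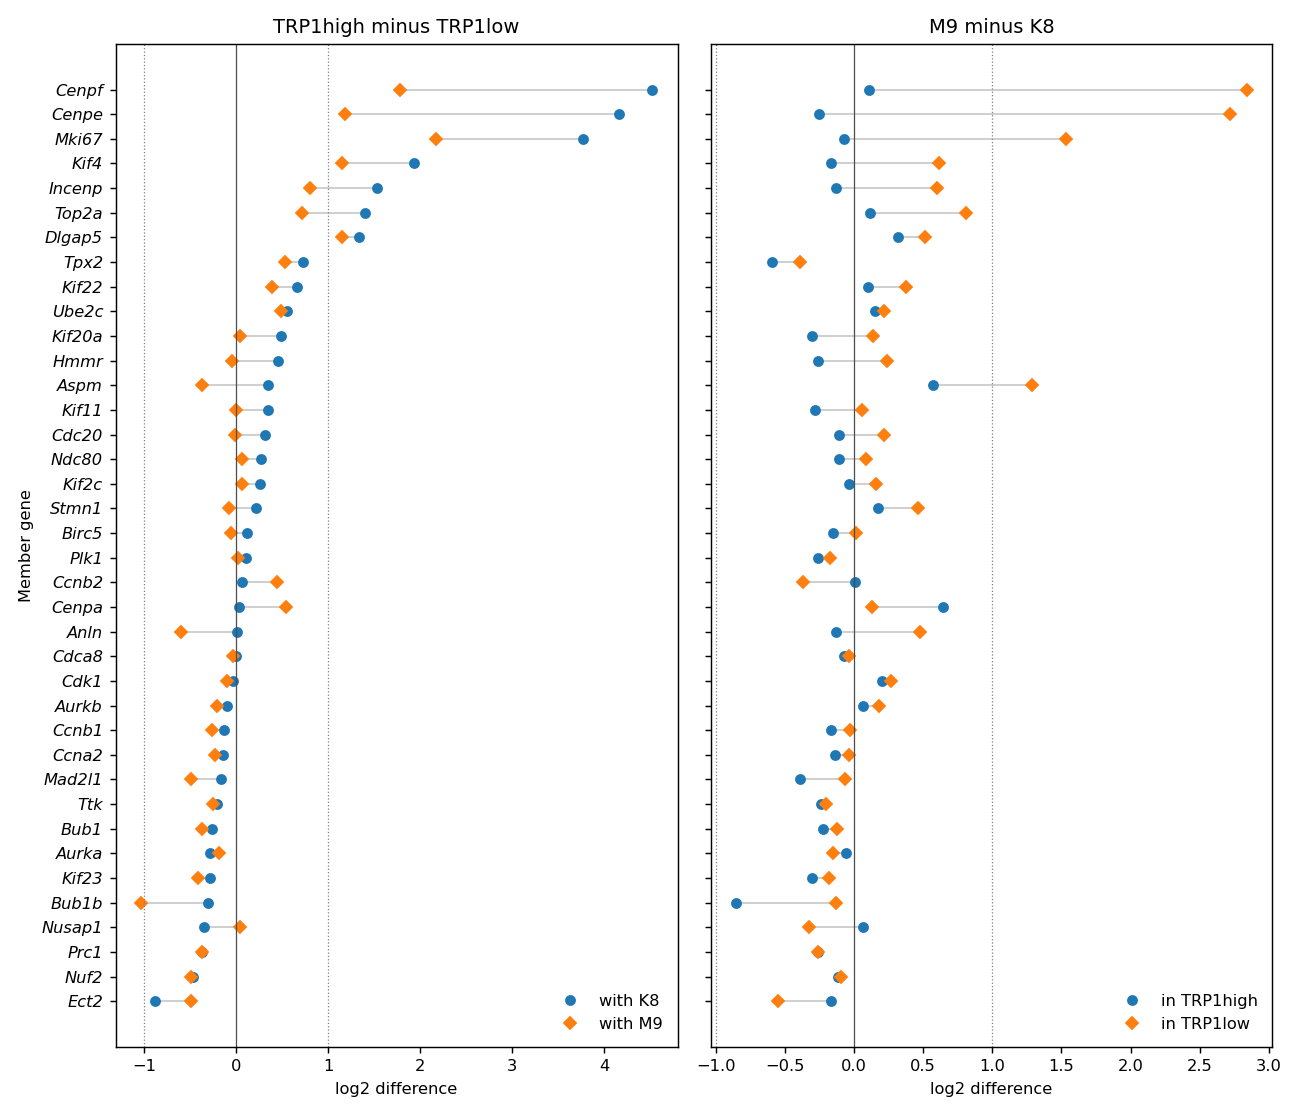
Log2 differences of the 38 genes between receptors (left, circles with K8 and diamonds with M9) and between peptides (right, circles in TRP1high and diamonds in TRP1low), ordered by the receptor difference with K8. Dotted lines mark 2-fold. Mki67, Cenpe, Cenpf, Kif4 and Dlgap5 lie beyond the right dotted line of the left panel with both peptides, and Mki67, Cenpe, Cenpf and Aspm do so in the right panel in TRP1low.

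The peptide comparison asks whether M9 and K8 left the cells with different levels of the programme. In TRP1high, 0 of 38 members were 2-fold apart, against 9.87% of all genes tested (5.14% higher and 4.73% lower with M9). The median was -0.12, with 26 of 38 members below 0, against -0.02 and 53.3% below 0 over all genes. Cenpa (0.64) and Aspm (0.57) were the highest, and Bub1b (-0.85), Tpx2 (-0.59) and Mad2l1 (-0.39) the lowest. Mki67 was 1.05-fold lower with M9 (1.01 to 1.09). In TRP1low, 4 members were at least 2-fold higher with M9 and 0 lower, against 7.67% and 7.43% of all genes (15.1% in all). Cenpf was 7.26-fold (5.37 to 9.89), Cenpe 6.65-fold (5.24 to 8.45), Mki67 2.90-fold (2.56 to 3.30) and Aspm 2.45-fold (2.23 to 2.69) higher. The median of the 38 was 0.11, against 0.02 over all genes. Ect2 (-0.55), Tpx2 (-0.39) and Ccnb2 (-0.37) were the lowest.

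Aspm, a spindle pole protein (chromosome 1, 139454772 to 139494091), stood at 10.01, 10.58, 9.66 and 10.95. Both M9 libraries were above both K8 libraries, and the receptors did not part as they did for Mki67. The peptide difference of TRP1high minus that of TRP1low had a median of -0.19 over the 38 members, against -0.06 over all genes tested. It was at least 2-fold in size for Mki67 (-1.61), Cenpe (-2.97) and Cenpf (-2.74), all lower, against 9.68% of all genes lower and 9.07% higher. The comparisons with K8 and within TRP1low share the TRP1low with K8 library, so these values are not separate evidence. At a lower limit of 1.5-fold, 3 members were apart between the peptides in TRP1high (19.6% of all genes), 7 in TRP1low (27.0%), 10 between the receptors with K8 (33.2%) and 9 with M9 (25.9%).

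Whether Mki67 followed the other mitotic genes depended on which libraries were compared. Between the peptides in TRP1high it did, at -0.07 against a median of -0.13 for the other 37, in place 15 of 38 from the top. Between the peptides in TRP1low it stood at 1.54 against 0.09, in place 3 of 38. Between the receptors it stood at 3.78 against 0.11 with K8, in place 3 of 38, and at 2.17 against -0.03 with M9, above all 37 others. In that last comparison, which leaves out TRP1low with K8, Mki67 was still 2.20 log2 units from the median of the others, whose middle 50% ran from -0.26 to 0.44. Over all genes tested, 1.16% had a larger receptor difference than Mki67 with K8 and 3.03% with M9.

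Likeness to Mki67 was measured as the root mean square distance between log2 values over the 4 libraries, after each gene's own mean was taken away. Cenpe (0.45), Cenpf (0.47) and Kif4 (0.79) were closest, then Dlgap5 (0.95), Incenp (0.96) and Top2a (0.99). The remaining members began at Kif22 (1.29) and ended with Nuf2 (1.82), Bub1b (1.93) and Ect2 (1.97). Ccnb1, at 1.68, and Top2a, at 0.99, both widely used marks of dividing cells, thus lay at different distances from Mki67.

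**Figure D3:**
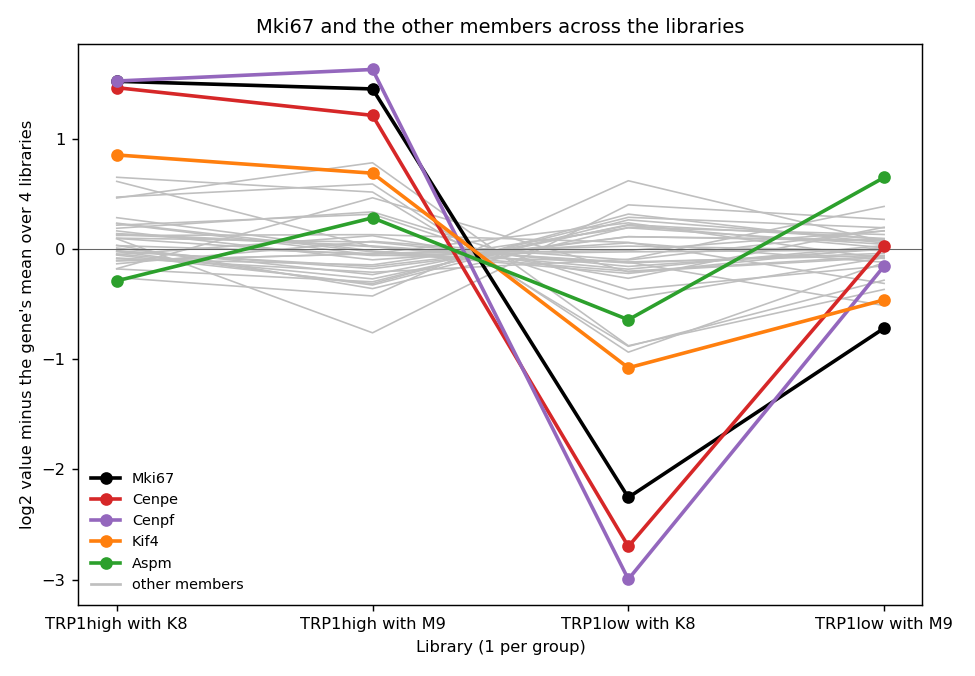
Log2 value of each gene minus its own mean (vertical axis) in the 4 libraries (horizontal axis), 1 line per gene, with 5 genes in colour and the other members in grey. Mki67 runs from 1.52 in TRP1high with K8 to -2.25 in TRP1low with K8 beside Cenpe and Cenpf, while most grey lines stay near 0.

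Of the 4 members with the longest coding sequences, Mki67, Cenpe and Cenpf stood together between the receptors and Aspm stood apart. Between the peptides in TRP1low, these 4 were the only members at least 2-fold higher with M9. By GENCODE M21, the longest coding sequence was 9531 bases in Mki67, 8991 in Cenpf, 7413 in Cenpe and 9366 in Aspm, and under 5000 bases in each of the other 34 members. Among all 154 genes with a coding sequence of at least 7000 bases and a mean of at least 100 normalized counts, the median receptor difference with K8 was 1.05, and 52.6% were at least 2-fold higher in TRP1high. Genes of 1000 to 2000 bases (3663) had a median of -0.09, and 5.65% were 2-fold higher. With M9 these medians were 0.48 and -0.10. For the peptide in TRP1low the medians of the same length classes were 0.58 and -0.05. There 33.8% of the long genes and 3.55% of those of 1000 to 2000 bases were at least 2-fold higher with M9. Set against the average of the remaining 3 libraries, the median of the long genes was -0.90 in TRP1low with K8 and -0.11 with M9, and 0.61 and 0.43 in TRP1high with K8 and M9. Coding length thus moved with the receptor difference across the transcriptome, and its part in the result for Mki67, Cenpe and Cenpf was not tested. The 13.7-fold, 18.1-fold and 23.3-fold differences of these 3 genes all rest on the library in which long genes were low. No record of RNA quality was used here, and the part of RNA quality was not tested.

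Length did not order every member between the receptors. Aspm, nearly as long as Mki67, had a receptor difference of 0.35 with K8, and Incenp (2640 bases) and Dlgap5 (2424 bases) were past 2-fold at an ordinary length. Of the 6 members between 3000 and 5000 bases, the longest were past 2-fold with K8, Top2a (4584 bases) at 1.41 and Kif4 (3693 bases) at 1.93. The other 4, Bub1 (3177), Bub1b (3156), Kif11 (3156) and Anln (3363), lay between -0.31 and 0.35. Of the 154 longest genes, 10 had a difference at least as large as that of Mki67 with K8, and 4 with M9, Mki67 itself counted in both. Over the 38 members the Spearman correlation of coding length with the receptor difference was 0.38 with K8 and 0.16 with M9, and over 9505 genes it was 0.23 and 0.19. For the length of the whole transcript it was weaker, at 0.26 and 0.04 over the members and 0.084 and 0.077 over the 9505 genes. Coding length had a Spearman correlation with the peptide difference in TRP1low of 0.36 over the members and -0.0004 over the 9505 genes. These are descriptions across genes that share their libraries. The GC content of the transcript had a Spearman correlation of 0.31 with the K8 difference over the 9505 genes and of 0.20 over the members.

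**Figure D4:**
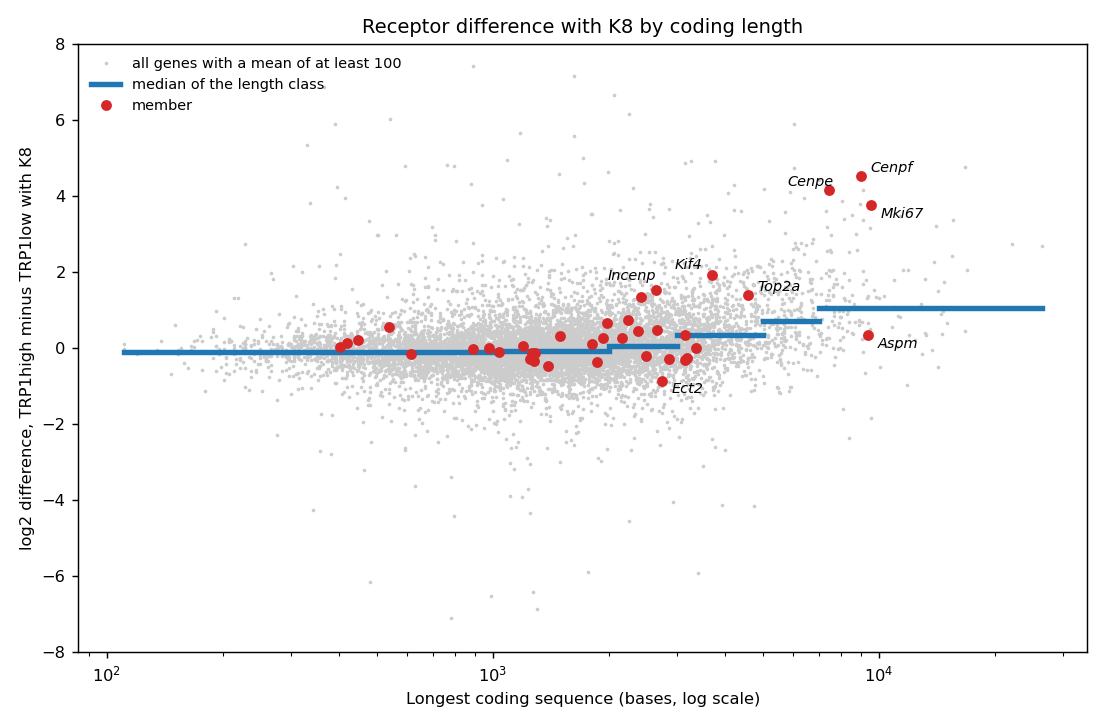
Receptor difference with K8 (vertical axis, log2) against the longest coding sequence (horizontal axis, bases, log scale) for 9505 genes (grey) and the 38 members (red), with the median of each length class as a blue bar. The bars climb from -0.11 under 1000 bases to 1.05 from 7000 bases on. Cenpe, Cenpf and Mki67 stand far above the bar of their class, and Aspm below it.

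Per kilobase of transcript, a scale on which genes can be compared, Stmn1 was the most abundant member in every library, at 7833 to 10800 normalized counts per kb, followed in each by Birc5, at 6225 to 6932. Mki67 was at 593 and 565 in TRP1high with K8 and M9, close to Ect2 (606 and 539) and Kif23 (581 and 471). In TRP1low it was at 43.2 and 126, while Ect2 was at 1114 and 760 and Kif23 at 709 and 626. Cenpf, at 139 and 150 in TRP1high, had 5.98 and 43.4 in TRP1low. Mki67 and Ect2 thus stood at like levels in TRP1high and far apart in TRP1low.

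Other genes of mitosis, 95 in 5 lists, were mostly near level. Of 35 other kinetochore and centromere genes, 1 was 2-fold higher in TRP1high with K8, Mad1l1 (a checkpoint protein, at levels of 10.47, 10.05, 9.01 and 9.39), and 0 were 2-fold apart in the other 3 comparisons. Among all genes tested, 10.6% were 2-fold higher in TRP1high with K8. The shares apart were 13.0% for the receptor with M9, and 9.87% and 15.1% for the peptide in TRP1high and TRP1low. Nsl1, a subunit of the MIS12 complex, had differences of 0.82 and 0.67 between the receptors with K8 and M9. The medians of the 35 were -0.13 and -0.03 for the peptide in TRP1high and TRP1low, and -0.10 and -0.07 for the receptor with K8 and M9. Of 20 other kinesin, spindle and cytokinesis genes, 5 were 2-fold higher in TRP1high with K8 and 2 with M9, and 1 was 2-fold higher with M9 than K8 in each receptor. Over all genes tested, 10.6% and 7.37% were 2-fold higher for the receptor, so that 2 of 20 with M9 was near the background. Their medians were 0.39 and 0.31 for the receptor with K8 and M9, and -0.13 and 0.11 for the peptide in TRP1high and TRP1low. Numa1, which anchors spindle poles, passed with both (11.92, 11.62, 9.16 and 9.87). Kif20b (10.41, 10.51, 8.13 and 9.85), Kif15 (11.37, 11.15, 9.46 and 10.19), Ckap5 (12.24, 11.88, 10.81 and 11.48) and Cit (9.31, 8.87, 8.29 and 8.54) passed with K8, and Kif20b also for the peptide in TRP1low (1.72). The longest coding sequences of these 5 ran from 4161 to 6282 bases. Kif14, of 5022 bases, stood at 9.26, 10.37, 9.19 and 8.83, highest in TRP1high with M9, and its receptor difference was 1.53 with M9 and 0.07 with K8.

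The 11 condensin and separase genes, the 15 subunits and regulators of the anaphase-promoting complex and the 14 regulators of mitotic entry held 0 genes 2-fold apart in any of the 4 comparisons. Among all genes tested, 69.1% were 2-fold apart in none of the 4, and 79.3% of those averaging 100 or more normalized counts. These lists are small, so their counts of 0 are a description only. With K8 their median receptor differences were 0.14, -0.18 and -0.05, and with M9 0.05, -0.16 and -0.07. The peptide medians of these lists were -0.15, 0.08 and -0.11 in TRP1high and 0.08, 0.06 and -0.09 in TRP1low. Among them, Smc2, a condensin ATPase, had a receptor difference of 0.79 with K8 and Pttg1 (securin, the separase inhibitor) one of -0.74. Fbxo5 (EMI1, an inhibitor of the anaphase-promoting complex) had one of -0.39, and Anapc11, which encodes the RING subunit of that complex, one of 0.29. Pkmyt1, a kinase that holds CDK1 inactive, had one of 0.73, and Cdc25a, a phosphatase that activates CDKs, one of 0.23.

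The 29 S phase genes, which act before mitosis, had medians of -0.24 for the peptide in TRP1high, -0.03 in TRP1low, 0.01 for the receptor with K8 and -0.21 with M9. Ccne2, a cyclin of S phase entry, stood at 11.53, 10.66, 11.79 and 11.34. Uhrf1, which keeps DNA methylation through replication, was 2-fold higher in TRP1high with K8 (14.14, 13.58, 13.13 and 13.04). So was Chaf1a, a histone chaperone (11.97, 11.97, 10.97 and 11.45), and both were only just past the limit. These 2 of 29 genes (6.9%) stood against 10.6% of all genes tested, so their share was below the background. With K8, 0 S phase genes were 2-fold lower in TRP1high, against 8.35% of all genes tested.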

How the data were processed

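RNA was sequenced from 4 groups, 1 library each, grouped by title. Each file lists gene symbols with log2 normalized counts made by the authors, per the file headers. Low values, once the logarithm was undone and 1 taken away, stood at multiples of 1 step per library, so they were read as estimated counts over a size factor. The submitters' processing notes name Salmon 0.8.2, DESeq2 1.20.0 and mm10. Their settings, annotation and filters are not given here. Of values up to 50, 56.2% to 56.4% lay within 0.01 of a whole read, so no count test was run. Dividing by the step and rounding gave estimated reads, used for 95% exact (Clopper-Pearson) intervals of ratios.

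Of 16338 rows, those of 1 repeated name were left out, and 16100 genes averaging 1 or more normalized counts were compared between single libraries, with no test. Folds are taken on normalized counts without the 1. Coding lengths and gene positions come from GENCODE M21 (GRCm38), using the transcript with the longest coding sequence, and were found for 94.6% of genes averaging 100 or more. Promoters come from RefSeq. Python 3.11.15, pandas 2.3.3 and scipy 1.17.1 were used, and the calculations were tested on simulated data. Values in every library were set to be printed for Mki67, the 3 highest and 3 lowest members of each comparison, and the 3 closest to and farthest from Mki67. Of the other lists, genes 2-fold apart in 1 direction under both receptors or peptides were named, or else the 2 with the largest mean difference. Other genes past 2-fold, and level values of further members, were added after their values were seen. The members and lists were chosen with earlier results of these data known. The level of 1 marker gene is not reported here.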

Additional observations from a re-analysis of the deposited data

Results flagged for a closer look

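The peptide difference had opposite signs under the 2 receptors for Mki67 and Cenpe, and its 2 values were at least 2-fold apart. For Mki67, M9 minus K8 was near level in TRP1high (-0.07) and 1.54 in TRP1low, so the first minus the second was -1.61. For Cenpe it was -0.25 and 2.72, which makes -2.97. The median of the 38 members also had opposite signs, at -0.12 and 0.11, and its difference was -0.23. Over the 28 members with a coding sequence under 3000 bases the TRP1low median was -0.00633, so the opposite signs did not hold there. With 1 library per group none of these differences between receptors was tested.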

How the results depend on the processing

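No paired analysis was possible because each group holds 1 library and the labels give no replicate numbers. A median was held to have moved when it shifted by more than the typical counting error of 1 member (0.07 to 0.08 log2). With the mean in place of the median, the members stood at 0.28 for the peptide in TRP1low, 0.52 for the receptor with K8, 0.15 with M9 and -0.37 for the receptor by peptide difference, and Mki67 stood 3.34 and 2.08 above the other members with K8 and M9. At a limit of 1.5-fold, 3 members were apart between the peptides in TRP1high (19.6% of all genes) and 7 in TRP1low (27.0%). An alternative chosen after seeing the data kept the 28 members with a coding sequence under 3000 bases. Their median for the peptide in TRP1low was -0.00633. Of the 28, 0 were 2-fold apart there, 2 between the receptors with K8 and 1 with M9. Over all genes tested, of any length, the shares in these comparisons were 15.1%, 18.9% and 13.0%, so the shorter members showed no excess over the background. With the 50 most abundant genes left out of the sum, the members' share was 0.541%, 0.513%, 0.443% and 0.468%, TRP1high before TRP1low and K8 before M9. Rescaling the libraries turned the median for the receptor with M9 from -0.02 to 0.02 (equal sums) and 0.05 (median ratio) and ended the call of Bub1b there, so that 5 members in place of 6 were 2-fold apart. An added 10 in place of 1, a mean of at least 100 and no filter turned no direction, and neither they nor the rescaling moved a count of members by over 1.5 times. Depth limits Cenpf and Cenpe most, at 49 and 80 reads in TRP1low with K8.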

Other observations

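Regulators of mitotic genes and brakes on the cell cycle were also measured. The list of transcriptional regulators held 23 genes (the FOXM1, B-MYB, MuvB, E2F, retinoblastoma and NF-Y genes). Between the peptides in TRP1high 0 were 2-fold apart, against 9.87% of all genes tested. In each other comparison 1 of the 23 (4.35%) was 2-fold apart. Over all genes tested, the shares there were 15.1% for the peptide in TRP1low, and 18.9% and 13.0% for the receptor with K8 and M9. The list was thus below the background throughout. Its medians ran from -0.22 to -0.06 over the 4 comparisons. E2f7 and E2f8, the atypical E2F repressors, were the 2 with the largest mean difference. E2f7 stood at 8.39 (K8) and 7.86 (M9) in TRP1high and at 8.21 (K8) and 6.67 (M9) in TRP1low. It was 2-fold lower with M9 than K8 in TRP1low (-1.54) and 2-fold higher in TRP1high than TRP1low with M9 (1.19). E2f8 stood at 10.93, 10.39, 9.74 and 9.65 in the same order, higher in both TRP1high libraries and 2-fold apart with K8 (1.19).

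Of 13 CDK inhibitors and antiproliferative genes in the files (of 14 listed), the medians were 0.40 and 0.07 for the peptide in TRP1high and TRP1low and -0.21 and 0.22 for the receptor with K8 and M9. Btg2, an antiproliferative gene, stood at 9.94, 10.73, 11.44 and 10.53 in the same order and was highest in TRP1low with K8, the library where Mki67 was lowest. Ccng2, an unusual cyclin linked to cell cycle exit, stood at 9.69, 10.15, 10.72 and 10.10, with the same library highest. Both were 2-fold lower in TRP1high than TRP1low with K8 (-1.50 and -1.03), against 8.35% of all genes, and were named after their values were seen. In the same comparison Cdkn1c was 2-fold higher in TRP1high (1.31), against 10.6% of all genes. Of the 13 genes, 6 were above 0 there and 7 below, so the list did not move in 1 direction. Cdkn2a and Cdkn1c, the 2 with the largest mean difference, had at most 18 estimated reads in any library.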
